A study of Mus musculus with 16 samples.

Results

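Fabp1, Fabp2 and Rbp2 are the genes of the intracellular lipid binding protein family examined here in mouse duodenal epithelium under a high fat diet. They were chosen by gene name, and all 3 were among the 2438 genes of the deposited table. By its design text, the study compared 9 Ephb4 flox/flox mice, whose Ephb4 alleles are flanked by recombination sites, with 7 Ephb4 knockout (KO) mice, in which Ephb4 was deleted from intestinal epithelial cells. Every mouse was 8 weeks old when a high fat diet of 19 weeks began. EphB4 is the receptor tyrosine kinase that binds ephrin-B2 on neighbouring cells, and the stated question was what its loss from the intestinal epithelium does in obesity. The sources used here do not name the recombinase line that made the deletion. The labels name the material duodenal epithelium, whereas the design text speaks of proximal small intestine tissue.

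Intracellular lipid binding proteins are small cytosolic barrels that hold hydrophobic ligands and carry them between membranes and enzymes. Absorptive enterocytes of the proximal small intestine are known for a very high content of 3 of them. Fabp1 encodes the liver-type fatty acid binding protein, which also takes lysophospholipids and monoacylglycerol. Fabp2 encodes the intestinal fatty acid binding protein, which is restricted to the gut epithelium. Rbp2 encodes cellular retinol binding protein 2, which binds newly absorbed retinol and presents it for esterification before it leaves in chylomicrons. Fabp1 is a classical target gene of the fatty acid receptor PPAR alpha, and all of them are expressed mainly by differentiated villus cells.

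The transcripts of all 3 genes were less abundant in the KO epithelium. Fabp1 was 1.95-fold lower, Rbp2 1.44-fold lower and Fabp2 1.33-fold lower in the ratio of group means. They are among the most abundant transcripts of the table. By mean normalised count Rbp2 ranked 2, Fabp2 ranked 3 and Fabp1 ranked 6 of the 2438 genes. Together they held 6.35% ± 0.763 of the reads in listed genes in flox (SD, n = 9) and 5.37% ± 0.535 in KO (SD, n = 7). Fabp1 accounted for most of this difference, at 1.49% ± 0.316 in flox and 0.976% ± 0.382 in KO. The share of Rbp2 was 2.51% ± 0.298 and 2.19% ± 0.247, and that of Fabp2 was 2.35% ± 0.354 and 2.21% ± 0.312.

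The table gives the genes on the GRCm38 build of the mouse genome. Fabp1 (ENSMUSG00000054422) is on chromosome 6 at 71199827 to 71205023, Fabp2 (ENSMUSG00000023057) on chromosome 3 at 122895072 to 122899506, and Rbp2 (ENSMUSG00000032454) on chromosome 9 at 98486115 to 98509781, all on the plus strand. In the GENCODE M21 annotation each has 4 coding exons, and the last of them has 48 bases in every gene. The first coding exon has 67 bases in Fabp1 and in Fabp2 and 73 in Rbp2. The coding length is 381 bases for Fabp1, 396 for Fabp2 and 402 for Rbp2. The aligned coding sequences were 54.1% identical between Fabp1 and Fabp2, 57.7% between Fabp1 and Rbp2, and 57.5% between Fabp2 and Rbp2. No stretch of 20 bases was shared by any pair, and the longest shared run had 11 bases, so a coding read longer than that run could match only 1 of the 3.

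The sequences just upstream of the genes are shown as description, and a shared regulation of the members was not tested. They are RefSeq sequences of GRCm38.p6, plus strand, 5′ to 3′. The Fabp1 sequence is chr6:71199629-71199826 and stops where the annotated first exon begins. The Fabp2 sequence is chr3:122894822-122895071. The Rbp2 sequence is chr9:98490287-98490536, upstream of the transcript Rbp2-201 and within the first intron of the longer Rbp2 transcripts, which start farther upstream. Capitals mark the letters matched, on either strand, by AGGTCA, the core hexamer of many nuclear receptor sites, or by CAAAGTNCA, a motif of the HNF4 type.
Fabp1: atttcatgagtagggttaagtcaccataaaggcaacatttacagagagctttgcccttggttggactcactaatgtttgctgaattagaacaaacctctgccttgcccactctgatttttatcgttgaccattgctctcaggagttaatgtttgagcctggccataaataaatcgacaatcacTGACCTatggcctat
Fabp2: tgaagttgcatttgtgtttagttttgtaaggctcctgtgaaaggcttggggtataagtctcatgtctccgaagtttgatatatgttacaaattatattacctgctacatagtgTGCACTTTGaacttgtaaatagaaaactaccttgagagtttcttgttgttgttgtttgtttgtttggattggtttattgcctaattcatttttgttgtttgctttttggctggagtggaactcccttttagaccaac
Rbp2: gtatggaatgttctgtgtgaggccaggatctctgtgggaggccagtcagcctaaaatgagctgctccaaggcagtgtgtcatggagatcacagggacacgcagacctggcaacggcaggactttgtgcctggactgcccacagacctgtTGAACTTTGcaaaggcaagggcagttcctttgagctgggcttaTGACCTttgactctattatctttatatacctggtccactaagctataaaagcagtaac
The motifs were chosen after these sequences had been seen, and they did not overlap each other. AGGTCA matched on the minus strand in Fabp1, starting at position -67 from the RefSeq start, and in Rbp2, starting at -58. CAAAGTNCA matched on the minus strand in Rbp2, starting at -101, and in Fabp2, starting at -137. Among the 32851 RefSeq promoter windows, AGGTCA occurred in 11.3% at the 198 bases used for Fabp1 and in 14.0% at 250 bases. CAAAGTNCA occurred in 0.928% and 1.19% of them. A match describes these letters only, and no binding was measured in this study.

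All values are the authors' normalised counts, which are read counts divided by 1 size factor per library. The recovered reads in listed genes ran from 4237178 to 5316273 per flox library and from 3592468 to 4555872 per KO library. Ephb4 ran from 102.7 to 353.8 in flox and from 23.3 to 84.7 in KO, so the groups did not overlap in the deleted gene. Of 31 exocrine pancreas genes 23 were listed, and flox replicates 4, 6, 7, 9 and 10 held 7362 to 145967 normalised counts of them, against 399.2 to 522.7 in the other 4 flox libraries and 403.1 to 1826 in KO. KO replicate 1 stood apart by a size factor of 1.38, the highest Ephb4 level of its group and the highest level of non-epithelial markers. Results are therefore also given without these libraries.

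Fabp1 had the largest difference of the 3. In flox the normalised counts were 50253 at the lowest (replicate 2), 79544 at the median and 99568 at the highest (replicate 3). In KO they were 22668 at the lowest (replicate 4), 36549 at the median and 63426 at the highest (replicate 2). Every KO library was below the flox median and 6 of 7 were below the lowest flox library, but KO replicate 2 lay above 3 of the flox libraries, so the groups overlapped. Mean levels were 72989 ± 17147 in flox (SD, n = 9) and 37359 ± 14327 in KO (SD, n = 7). The log2 difference was -1.01 ± 0.20 (SE) with a 95% interval of -1.43 to -0.60, and the adjusted p in limma was 0.0102. An exact permutation test of the same values gave a two-sided p of 0.000787 (n = 9 and 7). In the authors' deposited table its log2 fold change was -0.97 and its adjusted p 0.00013.

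Rbp2 was lower by a smaller amount, with a narrower spread in both groups. Its normalised counts ran from 93538 (replicate 6) through a median of 125418 to 141018 (replicate 3) in flox. In KO they ran from 65093 (replicate 7) through a median of 85861 to 108898 (replicate 8). Of the 9 flox libraries 8 lay above every KO library, and flox replicate 6 alone fell into the KO range. The means were 121874 ± 14022 (SD, n = 9) and 84520 ± 14903 (SD, n = 7). The log2 difference was -0.54 ± 0.11 (SE) with a 95% interval of -0.77 to -0.31 and an adjusted p of 0.0106 in limma. The exact permutation p was 0.00035 (two-sided, n = 9 and 7). For Rbp2 the authors' deposited table lists -0.53 on the log2 scale, at an adjusted p of 0.000144.

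Fabp2 had the smallest difference and the widest overlap. In flox its normalised counts ran from 92205 (replicate 6) through a median of 113203 to 135766 (replicate 9). In KO they ran from 60414 (replicate 1) through a median of 85740 to 112779 (replicate 8). Of the KO libraries 4 were below the lowest flox library, and replicates 4, 5 and 8 lay within the flox range. Means were 114135 ± 14890 (SD, n = 9) against 85594 ± 17551 (SD, n = 7). The log2 difference was -0.43 ± 0.12 (SE) with a 95% interval of -0.69 to -0.18, an adjusted p of 0.0388 in limma and an exact permutation p of 0.00306 (two-sided, n = 9 and 7). The corresponding entry in the authors' deposited table is -0.42, at an adjusted p of 0.00982.

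**Figure D1:**
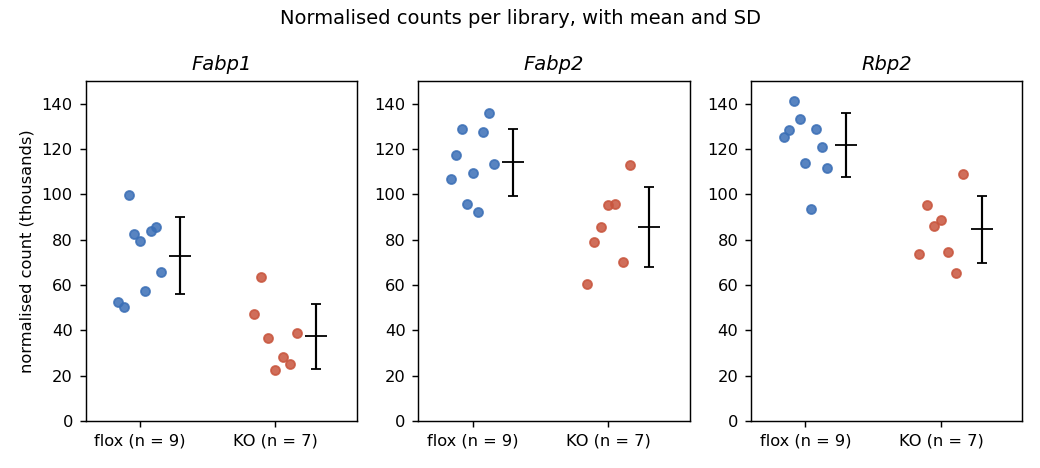
Normalised count divided by 1000 (vertical axis, from 0) of Fabp1, Fabp2 and Rbp2 in each of 9 flox and 7 KO libraries, 1 point per library, with the group mean and SD beside the points. The KO points of all 3 genes lie below the flox medians of 79544, 113203 and 125418, and the groups overlap in each panel.

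All 3 members passed limma in the lower direction, against 35.1% of the 2339 listed genes fitted, while 54.3% passed in either direction. The groups overlapped for each member, and among listed genes 5.33% were lower in KO without overlap. The table itself holds only genes with an authors' adjusted p under 0.05 on these same libraries. These were 14.8% of the 16488 genes adjusted over, 7.81% as lower and 6.97% as higher in KO, so the tests are not independent of that selection. Direction also went with abundance. A mean of 10000 normalised counts or more was found for 65 listed genes, of which 64 were lower in KO, and their median log2 difference was -0.38. Among them 1 gene had a larger fall than Fabp1, 9 had a larger one than Rbp2 and 18 had a larger one than Fabp2. At 50000 normalised counts or more there were 9 genes, members included, all of them lower with a median log2 difference of -0.40. Of these 0 had a larger fall than Fabp1, 1 had a larger one than Rbp2 and 3 had a larger one than Fabp2.

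The evidence differed in firmness between the members. Leaving out any single library kept Fabp1 between -1.16 and -0.91 and Rbp2 between -0.60 and -0.48 on the log2 scale, with adjusted p-values in limma of at most 0.027 and 0.0294. Fabp2 stayed between -0.50 and -0.35, but its adjusted p rose to between 0.05 and 0.0918 when flox replicate 1, 3, 5, 7, 9 or 10 or KO replicate 1, 2, 3, 5 or 7 was left out. Without KO replicate 1 the log2 differences were -1.08 for Fabp1, -0.35 for Fabp2 and -0.51 for Rbp2, with adjusted p-values in limma of 0.0164, 0.0789 and 0.0227. On recovered reads DESeq2 called all 3 members, where 52.9% of listed genes were called lower, and edgeR called Fabp1 and Rbp2, where 35.2% were. With TMM scaling over the listed genes Fabp1 and Rbp2 passed, against 8.08% of listed genes in the lower direction. With quantile normalisation 7.05% passed as lower and none of the 3 did.

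The flox libraries with pancreatic transcripts did not hold higher levels of the members throughout. Fabp1 averaged 75008 ± 12703 normalised counts in those 5 and 70465 ± 23529 in the other 4 flox libraries. Fabp2 averaged 112945 ± 19107 and 115623 ± 9958, and Rbp2 117650 ± 15749 and 127153 ± 11257 (SD, n = 5 and 4). Against the 4 flox libraries without these transcripts, the log2 differences were -0.94 for Fabp1, -0.46 for Fabp2 and -0.60 for Rbp2. Their exact permutation p-values over 330 splits were 0.0212, 0.0242 and 0.00606 (two-sided, n = 4 and 7). Of the 7 KO libraries, 6 were below the lowest of these 4 flox libraries for Fabp1, 6 for Fabp2 and 7 for Rbp2. None of the 3 passed in limma at this size, with adjusted p-values of 0.137, 0.206 and 0.0875, and only 0.257% of the listed genes passed there in the lower direction.

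**Figure D2:**
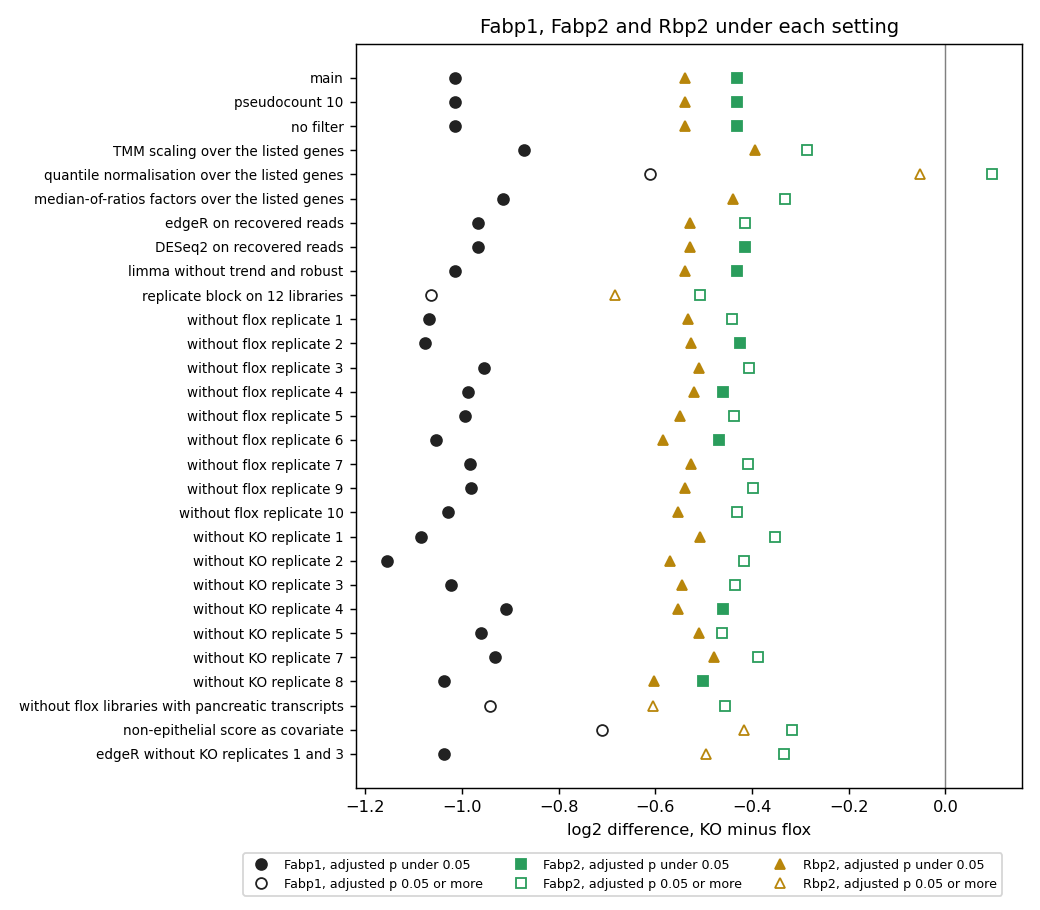
Log2 difference between KO and flox (horizontal axis, negative when lower in KO) of Fabp1 (circles), Fabp2 (squares) and Rbp2 (triangles) under each processing setting (rows; the top row is the fit reported), filled where the adjusted p was under 0.05. Fabp1 lies farthest to the left in every row, and with quantile normalisation Rbp2 moved to -0.052 and Fabp2 to 0.097.

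Whether the members differed from each other in their response was asked with ratios within a library, which do not depend on the size factors. Fabp1 over Rbp2 averaged 0.599 ± 0.119 in flox (SD, n = 9) and 0.444 ± 0.153 in KO (SD, n = 7). Flox ratios ran from 0.391 through 0.618 to 0.709 and KO ratios from 0.256 through 0.384 to 0.666. KO replicates 1 and 2 lay among the higher flox libraries, while the other 5 KO libraries lay at or below 0.426. The log2 ratio was lower by 0.48 in KO, at -0.48 ± 0.21 (SE), with an exact permutation p of 0.036 and 0.0582 after adjustment over the 3 ratios.

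Fabp1 over Fabp2 averaged 0.641 ± 0.134 in flox (SD, n = 9) and 0.463 ± 0.232 in KO (SD, n = 7), a log2 difference of -0.58 ± 0.28 (SE) with an exact permutation p of 0.0388, adjusted to 0.0582. Its KO values were split as well, with replicates 1 and 2 at 0.780 and 0.803 and the other 5 between 0.238 and 0.426. Neither ratio passed after adjustment with all libraries. Without flox replicate 2, KO replicate 1 or KO replicate 2 both did, at adjusted exact permutation p-values of 0.041, 0.0222 and 0.0177. Fabp2 over Rbp2 averaged 0.942 ± 0.113 in flox and 1.02 ± 0.161 in KO, a log2 difference of 0.11 ± 0.10 (SE) with an exact permutation p of 0.314 (n = 9 and 7). A larger fall of Fabp1 than of the other members was therefore measured but did not pass, and a difference between Fabp2 and Rbp2 was not detected.

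Vil1, which encodes villin of the microvillus core and is not of the intracellular lipid binding protein family, served as an enterocyte transcript for comparison. Its own normalised count ran from 52449.7 to 73015.3 in flox and from 36390.7 to 50916.3 in KO, without overlap, and its log2 difference was -0.34 with an adjusted p of 0.0307 in limma, which rose to at most 0.0617 without flox replicate 3 or 10 or KO replicate 1, 5 or 7. Fabp1 over Vil1 fell, averaging 1.23 ± 0.317 in flox (SD, n = 9) and 0.802 ± 0.338 in KO (SD, n = 7), a log2 difference of -0.68 ± 0.26 (SE) with an exact permutation p of 0.016, adjusted over 3 ratios to 0.048. It passed narrowly. Without flox replicate 3, 4, 5, 6, 7 or 9 or KO replicate 3, 4, 5, 7 or 8 the adjusted p rose to between 0.0508 and 0.119, with log2 differences of -0.71 to -0.56.

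Rbp2 over Vil1 averaged 2.05 ± 0.293 in flox and 1.78 ± 0.271 in KO, a log2 difference of -0.20 ± 0.11 (SE) with an adjusted exact permutation p of 0.145 (n = 9 and 7). It passed in 1 case, without flox replicate 10, at -0.25 and an adjusted p of 0.0469. Fabp2 over Vil1 averaged 1.93 ± 0.351 in flox and 1.80 ± 0.275 in KO, a log2 difference of -0.09 ± 0.12 (SE) with an exact permutation p of 0.45 (n = 9 and 7). Relative to villin, then, with all libraries a difference passed the test narrowly for Fabp1 and did not pass for Rbp2 or Fabp2. The Fabp1 call was lost in 11 of 16 tests that left out 1 library.

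**Figure D3:**
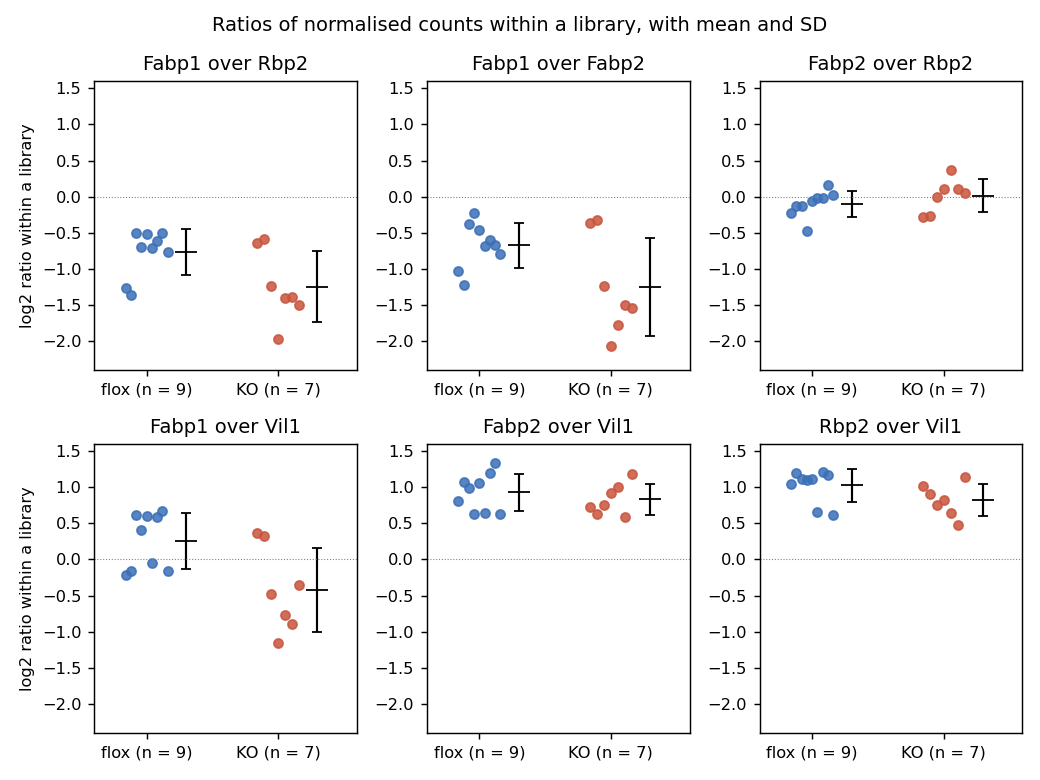
Log2 of the ratio of normalised counts within a library (vertical axis) for the pairs of members (top) and for each member over Vil1 (bottom), 1 point per library, with the mean and SD of 9 flox and 7 KO libraries. In the 3 panels with Fabp1 in the numerator, KO replicates 1 and 2 lie among the flox points and the other 5 KO libraries lie lower on average.

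Variation within the groups was wider in Fabp1 than in the other members. Its coefficient of variation was 23.5% in flox and 38.4% in KO, against 13.0% and 20.5% for Fabp2 and 11.5% and 17.6% for Rbp2. The highest KO library held 2.80 times the Fabp1 count of the lowest, and for Rbp2 this range was 1.67-fold. Correlations between members were taken over the libraries of each group. Between Fabp2 and Rbp2 the Pearson correlation was 0.52 in flox (Spearman 0.37) and 0.68 in KO (Spearman 0.64). Between Fabp1 and Rbp2 it was 0.42 in flox (Spearman 0.45) and 0.39 in KO (Spearman 0.32).

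Fabp1 and Fabp2 gave a Pearson correlation of 0.46 in flox (Spearman 0.58) and of -0.28 in KO (Spearman -0.25). None of these 6 correlations passed an exact permutation test, whose adjusted p-values were 0.413 to 0.546 for Pearson and 0.417 to 0.595 for Spearman (n = 9 and 7). Without the 2 libraries farthest from the median of the first gene, the flox value of Fabp1 and Rbp2 became 0.92 and that of Fabp1 and Fabp2 0.67, in both cases without flox replicates 1 and 2. For Fabp2 and Rbp2 the flox value became 0.24 without flox replicates 6 and 9, and the KO value 0.38 without KO replicates 1 and 8.

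The genes whose log2 levels ran most like each member, after centring within each group, also differed between members. Over 16 libraries and 765 listed genes whose mean reached 1000, the closest to Fabp1 were Taf15 (r = 0.89), which encodes an RNA binding protein of the TATA box factor complex, Akr7a5 and Lamtor2 (both 0.80), Sod1 (0.78), the cytosolic superoxide dismutase, and Cdc42bpg (0.77). Closest to Fabp2 were Dpep1, a membrane dipeptidase, and Tmem86b (both 0.86), then Gal3st2b and Aco1 (both 0.83) and Tagln2 (0.82). Closest to Rbp2 were Ces2c, a carboxylesterase (0.86), P4hb (0.83), the protein disulfide isomerase that is also a subunit of the triglyceride transfer protein, Fam3c and Cgref1 (both 0.81) and Mon1a (0.79). No gene was on more than 1 of these lists of 5. On the same scale r was 0.62 between Fabp2 and Rbp2, 0.40 between Fabp1 and Rbp2 and -0.01 between Fabp1 and Fabp2. These values describe libraries that share scaling and tissue composition, and no test was made of them.

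Levels can be compared between the genes only per length of transcript, and the order depended on the length used. With the deposited gene lengths of 553 bases for Fabp1, 965 for Fabp2 and 962 for Rbp2, the flox means were 131988 ± 31007 normalised counts per kilobase for Fabp1, 126688 ± 14576 for Rbp2 and 118275 ± 15430 for Fabp2 (SD, n = 9). Within flox libraries Fabp1 was above Rbp2 in 7 of 9, and Rbp2 was above Fabp2 in 7 of 9. The differences between neighbours in this order were not tested. In KO the order was Fabp2 at 88699 ± 18188, Rbp2 at 87859 ± 15492 and Fabp1 at 67558 ± 25909 (SD, n = 7). Fabp1 thus held the first place in flox and the last in KO on this scale. With the 672 bases of the transcript Rbp2-201, Rbp2 was the highest in 9 of 9 flox and 7 of 7 KO libraries. With coding lengths, Fabp1 was the lowest in 9 of 9 and 7 of 7. The rank of Fabp1 among the members therefore depends on the length chosen.

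Of the 15 genes of the intracellular lipid binding protein family, these 3 were the listed ones, and 14.8% of all genes adjusted over were listed. The other 12, not analysed here, include Fabp6, the ileal bile acid carrier, Fabp5, Rbp7 and the retinoic acid carriers Crabp1 and Crabp2. Of 15 other intracellular lipid carriers 4 were listed, all lower, and 3 passed limma. Scp2, the sterol carrier protein, fell 1.27-fold. Its normalised counts were 16283 ± 2114 in flox (SD, n = 9) and 12845 ± 1837 in KO (SD, n = 7), and the adjusted p in limma was 0.0414. The acyl-CoA binding protein gene Acbd4 fell 1.25-fold and Stard3, a cholesterol transporter of late endosomes, fell 1.28-fold, with adjusted p-values in limma of 0.0395 and 0.018. Stard10 was 1.30-fold lower with an adjusted p of 0.0746. The median log2 difference of the 4 was -0.36, and over all 2339 listed genes fitted it was -0.25. Over the 768 listed genes with a mean of 1000 normalised counts or more it was -0.35, near that of the carriers. Of those 768 genes 712 were lower in KO, and 502 passed limma as lower.

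In retinoid handling, where Rbp2 acts, 7 of 24 genes were listed, and 3 passed limma as lower and 1 as higher. Over all 2339 listed genes fitted, 35.1% passed as lower and 54.3% in either direction. Rdh7, a retinol dehydrogenase, fell 1.45-fold, with 5497 ± 893.4 normalised counts in flox (SD, n = 9), 3800 ± 590.7 in KO (SD, n = 7) and an adjusted p of 0.0118 in limma. Rxra, the retinoid X receptor that pairs with PPAR alpha and the liver X receptors, fell 1.34-fold from 3967 ± 370.5 to 2962 ± 245.3 without overlap of the groups, at an adjusted p of 0.00579 in limma. Its relative Rxrb fell 1.29-fold with an adjusted p of 0.0396, a call that was lost in 10 of 16 fits that left out 1 library. Dhrs4, Rara and Aldh1a1, the last a retinal dehydrogenase at 10058 ± 2844 in flox and 6544 ± 2898 in KO, did not pass, with adjusted p-values in limma of 0.0536, 0.0657 and 0.0904. Stra6, the cell surface receptor for retinol bound to its plasma carrier, rose from 5.83 ± 7.27 to 34.2 ± 21.9 normalised counts, with an adjusted p of 0.0377 in limma. It was at 0 in 4 flox libraries, its groups overlapped, and its call was lost in 10 of 16 fits without 1 library. Lrat, which esterifies retinol, and Bco1, which cleaves carotene, were not analysed here.

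Some genes acting before and after the fatty acid binding proteins fell. Of 12 genes of fatty acid uptake and activation 5 were listed, and 2 passed limma, both lower. Slc27a4, a fatty acid transport protein and acyl-CoA synthetase, fell 1.53-fold, with 31327 ± 4265 normalised counts in flox (SD, n = 9), 20521 ± 4037 in KO (SD, n = 7) and an adjusted p of 0.00845 in limma. Slc27a2 fell 1.30-fold at an adjusted p of 0.0318. Cd36, the fatty acid translocase, and Acsl5, the main enterocyte acyl-CoA synthetase, were 1.58-fold and 1.24-fold lower without passing, at adjusted p-values in limma of 0.0956 and 0.0933, and Acsl4 was 1.61-fold higher at 0.0624. Of 28 genes of triglyceride synthesis and chylomicron assembly 13 were listed, all lower, and 11 passed limma, with a median log2 difference of -0.40. Among them Dgat2 fell 1.53-fold and Dgat1 1.27-fold, the enzymes of the last step of triglyceride synthesis, and P4hb fell 1.31-fold. Apoa1, the transcript with the highest mean of the table, was 1.40-fold lower at an adjusted p of 0.0772 in limma and did not pass. These counts stand beside 712 lower genes and 502 limma calls as lower among the 768 listed genes whose mean reached 1000. The median log2 difference of those 768 genes was -0.35, near that of the triglyceride and chylomicron list.

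Of 25 regulators of enterocyte lipid genes 4 were listed, all lower, and 3 passed limma. Creb3l3, a membrane-bound factor that drives triglyceride metabolism genes, fell 1.38-fold, with 18672 ± 2449 normalised counts in flox (SD, n = 9), 13508 ± 2685 in KO (SD, n = 7) and an adjusted p of 0.0183 in limma. Nr1h3, the liver X receptor alpha, fell 1.28-fold and Cdx2, an intestinal homeobox factor, fell 1.24-fold, at adjusted p-values in limma of 0.0303 and 0.0333. Nr1i2, the pregnane X receptor, was 1.38-fold lower at 0.065. Ppara, Hnf4a, Hnf4g and Gata4 were not analysed here. Of 24 intestinal target genes of PPAR alpha, a group to which Fabp1 is commonly assigned but in which it was not counted here, 8 were listed, all lower, and 6 passed limma. The peroxisomal thiolase gene Acaa1a fell 1.49-fold, at an adjusted p of 0.0159 in limma. These regulator and target counts stand beside 712 lower genes and 502 limma calls as lower among the 768 listed genes whose mean reached 1000.

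These calls differed in how far they depended on single libraries and on scaling. Stard3, Rdh7, Rxra, Slc27a4, Creb3l3 and Acaa1a passed limma in all 16 fits that left out 1 library. The call was lost in 11 such fits for Scp2, in 9 for Acbd4, in 8 for Slc27a2, in 6 each for Dgat2 and Cdx2, in 4 for Nr1h3 and in 1 each for Dgat1 and P4hb, with adjusted p-values of at most 0.0947. None of the lipid, retinoid and regulator genes passed without the 5 flox libraries that held pancreatic transcripts, or with the marker score as a covariate, which by its construction from listed markers takes up part of the group difference. At an unadjusted p under 0.05 in limma, 12 of the 13 triglyceride and chylomicron genes were lower in the first of these fits and 4 in the second, and 4 and 2 of the 4 regulators. With quantile normalisation the median log2 differences of these lists moved to between -0.08 and -0.03, and some genes changed sign. These were 3 of the 13 triglyceride and chylomicron genes, 2 of the 8 PPAR alpha targets and 1 of the 4 other lipid carriers. The sign also changed for 1 of the 7 retinoid genes, 1 of the 5 uptake and activation genes and 0 of the 4 regulators.

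**Figure D4:**
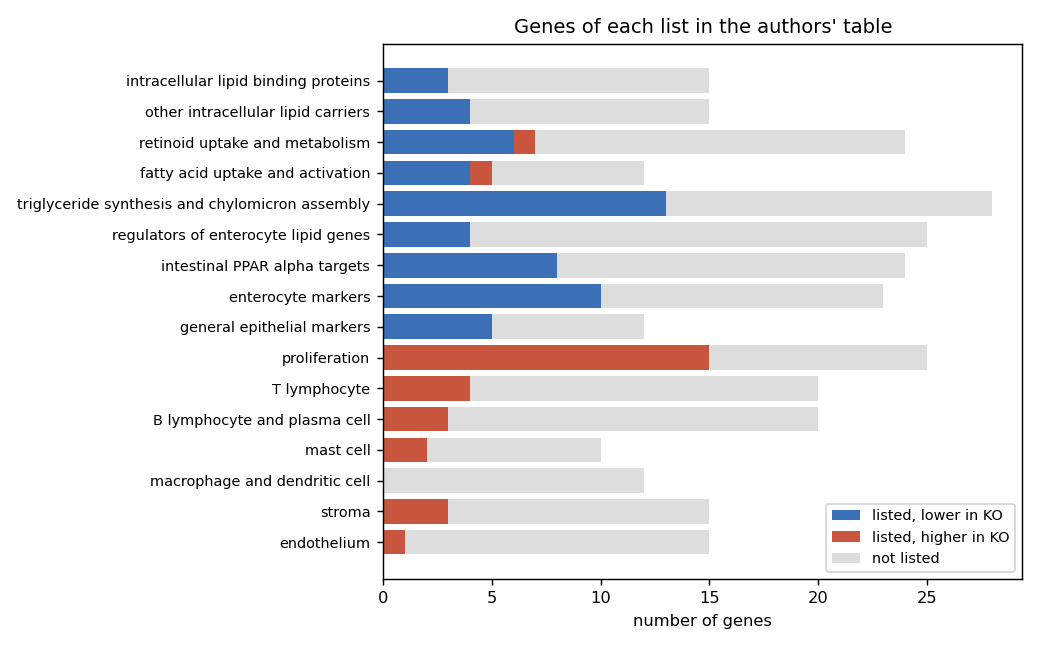
Number of genes (horizontal axis, from 0) of each gene list that the authors' table holds as lower in KO (blue) or higher in KO (red), and the rest of the list (grey). The lipid and enterocyte lists held lower genes except for 1 retinoid gene and 1 uptake gene, and the proliferation and non-epithelial lists held higher genes.

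Some markers of the tissue also differed between the groups. Of 23 enterocyte markers 10 were listed, all lower, and 5 passed limma. Vil1 and Lct, which encodes lactase, were among them, Lct at a 1.35-fold fall and an adjusted p of 0.0396 in limma that was lost in 11 of 16 fits without 1 library. Of 12 general epithelial markers 5 were listed, all lower, and 2 passed. Among the 768 listed genes whose mean reached 1000, 712 were lower and 502 passed limma as lower. With quantile normalisation 5 of the 10 enterocyte and 5 of the 5 general epithelial markers changed sign, and Vil1 moved to 0.035. The list of 25 proliferation genes had 15 in the table as higher in KO, of which 9 passed limma. Of all genes adjusted over, 6.97% were listed as higher, and 449 of the 2339 listed genes fitted passed limma as higher. The summed level of the 15 proliferation genes ran from 1093 to 3519 normalised counts in flox and from 2722 to 5913 in KO. The cell cycle gene Mki67 averaged 402.3 ± 192.9 in flox (SD, n = 9) and 803.3 ± 248.9 in KO (SD, n = 7), and its rise had an adjusted p of 0.0327 in limma, lost in 7 of 16 fits without 1 library. Fewer differentiated enterocytes in a sample and less Fabp1, Fabp2 or Rbp2 RNA per enterocyte cannot be told apart in these bulk libraries.

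Of 92 markers of T and B lymphocytes, mast cells, macrophages, stroma and endothelium 13 were listed, which is 14.1%, and all 13 were higher in KO. Of all genes adjusted over, 14.8% were listed, a share near that of the markers, and 6.97% were listed as higher. Of the 13 markers 4 passed limma. None of the 12 macrophage and dendritic cell markers was listed. Summed over the 13, the level ran from 438.7 to 1205 normalised counts in flox and from 652.3 to 3126 in KO, and Lum, a stromal marker, was the only one at 0 in any library. The score, the mean log2 level of the 13, ran from 4.36 to 5.87 in flox and from 5.12 to 7.22 in KO. KO replicates 2 and 3, the ones whose scores of 5.12 and 5.34 lay in the flox range, held 63426 and 36549 normalised counts of Fabp1, 78951 and 85740 of Fabp2, and 95301 and 85861 of Rbp2. The 13 markers are in the table because they differed between these same groups, so a covariate made from them takes up part of the group difference by construction, and a call lost with it is no test of the members. With the score as a covariate the log2 differences were -0.71 for Fabp1, -0.32 for Fabp2 and -0.42 for Rbp2. None passed in limma, at unadjusted p-values of 0.0217, 0.0922 and 0.0175 and an adjusted p of 1 for each, and 0.171% of the listed genes passed as lower in that fit. The part of the marker levels in the members' differences was not tested.

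**Figure D5:**
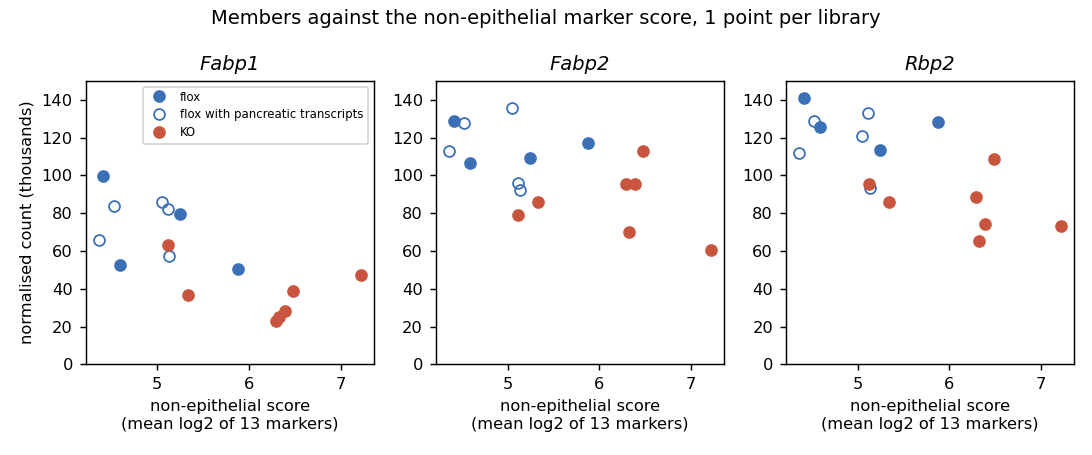
Normalised count divided by 1000 of each member (vertical axis) against the non-epithelial score (horizontal axis, mean log2 level of 13 markers) in 9 flox and 7 KO libraries, with open points for the 5 flox libraries with pancreatic transcripts. KO libraries lie lower for every member and mostly at higher scores, and KO replicates 2 and 3 lie within the flox range of scores, which ends at 5.87.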

How the data were processed

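The members and gene lists were chosen with earlier results of these data known. Polyadenylated RNA was sequenced from duodenal epithelium, 1 library per sample, per the labels' protocols. The numbers of libraries match the 9 and 7 mice of the design text, but nothing ties each library to its own mouse, so p-values measure the spread between these libraries. The submitters' processing notes name HISAT2 2.0.5, featureCounts 1.5.0-p3, DESeq2 1.20.0 and GRCm38 (mm10). Settings, including strandedness, are not given there.

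The deposited signal columns are counts divided by 1 size factor per library: 100% of the values were whole multiples of 1 step within 0.0001 reads, though this could not be checked automatically for KO replicates 1 and 3. Total depth is unknown. The deposited p-values and log2 fold changes are the authors' own, adjusted over 16488 genes, and the largest adjusted p was 0.0497. Replicates of a group were distinct, with a chi-square of at least 16.7 times its degrees of freedom for any pair.

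Values were analysed as log2(normalised count + 1), a scale that understates low genes, in limma 3.58.1 (trend, robust) for the 2339 listed genes whose mean reached 10. Two-sided p-values received Benjamini-Hochberg adjustment across 16488 genes, with every unlisted gene entered at 1, and calls used a threshold of 0.05. Exact permutation tests used all 11440 splits into 9 and 7 libraries, with a smallest p of 8.74e-05. edgeR 4.0.16 and DESeq2 1.42.0 were run on recovered reads as alternatives. The tools were checked on simulated counts. Flox libraries were said to hold pancreatic transcripts where their sum was over 10 times the KO median. Of the genes in the lists, the text names those of the lipid carrier, retinoid and regulator lists that were listed, up to 4 of the highest mean in other lists, and for each member the 5 most correlated genes. Slc27a2, Acsl4, Mki67 and Lum were named as members of small counts or as the most abundant of a list. Sequences are from RefSeq and matched for 3 of 3 members.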

Additional observations from a re-analysis of the deposited data

How the results depend on the processing

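Limits come first from the table, which holds only genes the authors selected on these libraries, and from scaling. The main settings gave 1269 calls among 2339 genes, 449 higher and 820 lower. TMM scaling, where the median log2 difference over listed genes was -0.11 in place of -0.25, gave 723 higher and 189 lower. Median-of-ratios factors gave 648 higher and 328 lower, and quantile normalisation gave 357 calls, 192 higher and 165 lower. DESeq2 gave 2109 calls, a count near the authors' selection that adds no separate support, and edgeR 1328. There were 11 calls when flox libraries holding pancreatic transcripts were left out, 7 with a covariate for the non-epithelial score, which is built from markers listed as different and so takes up part of the group difference, and between 518 and 1458 when 1 library was left out. At an unadjusted p under 0.05 limma gave 1703 and 606 in the first and second of these fits. Without KO replicates 1 and 3, an alternative chosen after seeing the data, edgeR gave 357 calls.

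Fabp1 no longer passed with quantile normalisation (-0.61), without the 5 flox libraries that held pancreatic transcripts (-0.94) and with the covariate (-0.71). Rbp2 no longer passed in the same fits (-0.052, -0.60 and -0.42) nor in edgeR without KO replicates 1 and 3 (-0.50, adjusted p = 0.0789). Fabp2 reversed with quantile normalisation (0.097) and no longer passed with TMM (-0.29), median-of-ratios factors (-0.33), edgeR (-0.42, adjusted p = 0.0715), edgeR without KO replicates 1 and 3 (-0.33), without those 5 flox libraries (-0.46) and with the covariate (-0.32). Rbp2 and Fabp2 ranked between 2 and 4 in every library and Apoa1 ranked 1, and quantile normalisation gives each rank the same value in every library, which by construction leaves such genes little room to differ. Among 30 other genes followed through the settings, those that reversed with it were Vil1 (0.035), Scp2 (0.040), Dhrs4 (0.051), P4hb (0.047), Acsl5 (0.092), Krt20 (0.024) and Dgat1 (0.044). With a pseudocount of 10, without the filter, with DESeq2 or in limma without trend and robust moderation all 3 members passed as lower.

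Leaving out 1 library gave -1.16 to -0.91 for Fabp1, -0.50 to -0.35 for Fabp2 and -0.60 to -0.48 for Rbp2. For the log2 ratios it gave -0.59 to -0.36 for Fabp1 over Rbp2, -0.74 to -0.45 for Fabp1 over Fabp2, 0.05 to 0.16 for Fabp2 over Rbp2, -0.81 to -0.56 for Fabp1 over Vil1, -0.15 to -0.04 for Fabp2 over Vil1 and -0.25 to -0.14 for Rbp2 over Vil1. Fabp1 over Vil1 no longer passed without the same 5 flox libraries (-0.63, adjusted exact permutation p = 0.155). For those 30 genes under 28 settings, 608 of 840 values kept their direction and side of the threshold, 208 no longer passed, 17 newly passed and 7 reversed. The cause was not tested for any of these.

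Both groups used replicate numbers, 6 of them shared. Same-numbered libraries had correlations of their deviations between -0.43 and 0.37. These correlations were not tested and cannot decide whether the numbers pair the libraries. A fit with the replicate number as a block on those 12 libraries gave 9 calls and log2 differences of -1.06 for Fabp1, -0.51 for Fabp2 and -0.68 for Rbp2, none of which passed. With the same block, an exact sign-flip permutation test on 6 pairs gave -0.74 for Fabp1 over Vil1 (p = 0.125, adjusted p = 0.188). The smallest p possible in this test before adjustment is 0.03125. Rbp2 over Vil1 reached it at -0.36, with an adjusted p of 0.0938, and Fabp2 over Vil1 gave -0.18 (adjusted p = 0.219). None of these 3 ratios passed after adjustment. No group of Fabp1, Fabp2 or Rbp2 values, or of their ratios, held a library that Dixon's test set apart, and depth limits none of the members, whose lowest library value was 22668 normalised counts.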
